A study of Drosophila melanogaster with 12 samples.

Results

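The genes described here encode lamins and proteins of the inner nuclear membrane and its links to the cytoskeleton. They are Lam, LamC, LBR, Ote, bocks, MAN1, koi, klar and Msp300, 9 of the 13968 protein-coding genes in the Ensembl annotation of the Drosophila melanogaster genome (BDGP6, the dm6 build). They were taken as a named list, by gene symbol, and all 9 matched. RNA polymerase II (Pol II) was mapped by chromatin immunoprecipitation and sequencing (ChIP-seq) with the 8WG16 antibody in Kc167 cells, a female line of embryonic origin. The antibody binds the C-terminal domain of the largest Pol II subunit. The paper describes it as detecting the hypophosphorylated form of this domain, and examined the phosphorylated, elongating forms separately. Cells were transfected with dsLaminB, a long double-stranded RNA against Lam, with siAGO2, a small interfering RNA against AGO2, or with no RNA (mock), and were collected 3 days after transfection. The data are 6 lists of broad peaks, 2 IP libraries for each treatment, called by the authors against input chromatin. The mock cells received no RNA at all, so the loss of either protein cannot be told apart from the entry of RNA, nor long from short RNA. The labels do not say whether the 2 libraries of a treatment came from separate cultures, so the spread between them may be technical.

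The nuclear lamina is a mesh of intermediate filament proteins under the inner nuclear membrane. Drosophila has a B-type lamin, encoded by Lam and widely expressed, and an A-type lamin, encoded by LamC, known chiefly from differentiating tissues. LBR spans the inner membrane and binds B-type lamin, while Ote, bocks and MAN1 carry a LEM domain, the fold that binds the chromatin protein BAF. The SUN protein koi and the KASH proteins klar and Msp300 meet between both membranes of the envelope and tie the nucleus to microtubules and actin.

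Members were examined at their transcription start sites (TSSs), where Pol II peaks are usually strongest. The promoters shown are those on which the peak patterns turn. They are the start of Lam, the target of the dsRNA; the divergent promoter of bocks; the first and an internal promoter of klar, which lay under a peak in each library; and the Msp300 promoter with the best-ranked peak of that gene. The sequences are from the RefSeq Release 6 assembly and run 5′ to 3′ on the strand of the gene, up to the first 30 transcribed bases. Capitals mark exact matches, on either strand, to any of 8 short core promoter motifs.
Lam, chr2L:5542285-5542509, plus strand: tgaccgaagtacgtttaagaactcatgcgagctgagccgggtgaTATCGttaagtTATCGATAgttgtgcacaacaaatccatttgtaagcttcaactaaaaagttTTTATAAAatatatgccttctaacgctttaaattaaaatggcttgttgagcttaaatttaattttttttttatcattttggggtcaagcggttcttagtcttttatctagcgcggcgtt
bocks, chr3R:9590973-9591252, minus strand: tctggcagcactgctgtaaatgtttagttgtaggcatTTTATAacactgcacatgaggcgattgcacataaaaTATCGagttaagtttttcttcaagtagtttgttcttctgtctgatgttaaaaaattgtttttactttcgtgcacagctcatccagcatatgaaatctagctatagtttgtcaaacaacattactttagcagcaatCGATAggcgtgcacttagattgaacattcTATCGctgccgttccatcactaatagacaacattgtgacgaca
klar first promoter, chr3L:540585-540864, minus strand: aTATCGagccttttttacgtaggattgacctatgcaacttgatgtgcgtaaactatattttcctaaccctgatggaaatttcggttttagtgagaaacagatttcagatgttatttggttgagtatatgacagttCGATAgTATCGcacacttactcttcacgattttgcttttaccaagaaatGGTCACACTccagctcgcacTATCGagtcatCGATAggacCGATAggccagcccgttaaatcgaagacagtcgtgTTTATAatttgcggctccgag
klar internal promoter, chr3L:490794-491073, minus strand: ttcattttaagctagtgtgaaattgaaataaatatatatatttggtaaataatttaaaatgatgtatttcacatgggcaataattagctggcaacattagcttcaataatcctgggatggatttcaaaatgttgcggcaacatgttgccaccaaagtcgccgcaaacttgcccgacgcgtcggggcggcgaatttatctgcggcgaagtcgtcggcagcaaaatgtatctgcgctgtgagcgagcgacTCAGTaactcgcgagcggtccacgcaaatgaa
Msp300, chr2L:5108262-5108541, plus strand: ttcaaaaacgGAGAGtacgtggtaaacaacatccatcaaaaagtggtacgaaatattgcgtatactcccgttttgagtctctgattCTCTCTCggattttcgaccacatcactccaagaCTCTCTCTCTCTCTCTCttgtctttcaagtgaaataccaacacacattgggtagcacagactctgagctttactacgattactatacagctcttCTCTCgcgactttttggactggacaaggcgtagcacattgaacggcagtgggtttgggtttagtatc

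The motifs were searched from 250 bases before to 50 bases after every TSS of a member that lay under a peak in any library (23 TSSs, some of them sharing a peak and overlapping in sequence) and in the same window of 19276 distinct protein-coding TSSs. Positions count the first transcribed base as 1 and the base before it as -1. The Lam window held the DNA replication-related element TATCGATA, the site of the factor DREF, at -140, and Lam was the only member with a match, in 2 overlapping windows of the 23. That element occurred in 7.98% of all promoters, and it contains the BEAF-32 core CGATA on both strands. CGATA was found in 12 of the 23 member windows (52.2%) and in 45.7% of all promoters. The first klar promoter held 6 matches to CGATA and 1 to GGTCACACT, a core of the Drosophila promoter element called motif 1, at -66. GGTCACACT was found in 2 of the 23 windows (8.70%), 1 each of Lam and klar, and in 5.22% of all promoters. The Lam match begins at -199 on the other strand, runs across the start of the printed stretch and so is not in capitals there.

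The Msp300 promoter differed from these in sequence. It held 11 overlapping or single matches to GAGAG, the letters bound by GAGA factor, which was found in 8 of the 23 windows (34.8%) and in 33.1% of all promoters. Its only CGATA match, at 27, runs past the end of the printed stretch and is not in capitals. The internal klar promoter had a single match, to the initiator core TCAGT at -2, which places the A of the match on the first transcribed base. In the range from 5 bases before to 5 after the TSS, chosen after the positions were seen, TCAGT on the strand of the gene occurred at 5 of the 23 member TSSs (21.7%) and at 11.3% of all promoters. TATAAA was found in 8 of the 23 windows (34.8%, against 42.2% of all promoters), and TCAGT anywhere in the window in 11 (47.8%, against 52.0%). AGACGT was found in 4 (17.4%, against 5.70%) and CAGCTG also in 4 (17.4%, against 17.9%). A match is a run of letters and does not show that a factor is bound.

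All 9 members had a peak on the gene body in both mock libraries, and 5 of them, LamC, bocks, koi, klar and Msp300, had one in all 6 libraries. Over all protein-coding genes, 18.2% had a body peak in all 6 libraries and 19.7% had a TSS peak, that is a peak that overlapped 500 bp on either side of any TSS of the gene, in all 6. The same 5 members had a TSS peak in all 6. The number of members with a body peak was 5 and 7 in the dsLaminB libraries, 8 and 9 in the siAGO2 libraries, and 9 and 9 in the mock libraries. Counted by TSS peaks, it was 5 and 7 in dsLaminB, 9 and 9 in siAGO2, and 9 and 9 in mock. Thus the members without peaks were in the dsLaminB libraries, apart from MAN1 in siAGO2 replicate 1, whose peak lay just outside the gene body. The mean difference from mock in members with a body peak was -3 in dsLaminB (pooled SD 1, n = 2 each, exact permutation p = 0.333) and -0.5 in siAGO2 (pooled SD 0.5, exact permutation p = 1). The siAGO2 difference was -2.5 when peaks under a −log10 q of 5 were left out, with 6 and 6 members in siAGO2 against 9 and 8 in mock. The share of all protein-coding genes was not computed for these stricter lists, so this change cannot be called particular to the members. The smallest two-sided p that 2 and 2 libraries allow is 0.333, so this test can call no difference here.

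The lists themselves differed in the same direction. They held 2531 and 4124 peaks in dsLaminB, 4089 and 5381 in siAGO2, and 5965 and 5601 in mock, and 20.2% and 33.6% of protein-coding genes had a TSS peak in dsLaminB, 35.4% and 44.8% in siAGO2, and 49.7% and 47.5% in mock. The lists carry no read counts, so the sequencing depth is unknown, and fewer or narrower peaks cannot be told apart from a shallower library, a less efficient IP or Pol II that is spread differently. When each list was shortened to its best 2531 peaks, members with a body peak numbered 5 and 5 in dsLaminB, 6 and 5 in siAGO2, and 5 and 6 in mock, and the difference of dsLaminB from mock was -0.5. Lam and MAN1 were then in none of the 6 lists, and Ote only in that of mock replicate 2. The share of all protein-coding genes was not computed for the shortened lists. In each library, 6 of 7 genes taken as markers of this blood-cell-like line had a body peak. The 7 were srp, Hml, NimC1, Pxn, vkg, Col4a1 and SPARC. Over all protein-coding genes, the share with a body peak ran from 18.96% in dsLaminB replicate 1 to 48.65% in mock replicate 1. Of 5 genes chosen as silent in this line, 1 had a body peak in dsLaminB replicate 2 and none in the other libraries.

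Members differed widely in rank. Peaks were ranked by -log10 q within a library, and the rank of the best TSS peak was taken as a percentage of the list, so that 0 is the top. The median of this percentage over members with a peak was 27.4% and 26.6% in dsLaminB, 31.8% and 33.1% in siAGO2, and 25.0% and 28.4% in mock. Over all protein-coding genes with a TSS peak it lay between 46.7% and 51.4%. The dsLaminB medians are over 5 and 7 members, those of the other libraries over 9. For the 5 members with a TSS peak in both dsLaminB libraries, the mock medians were 21.4% and 16.8%. A gene with more TSSs has more peaks to take the best from, and klar and Msp300 have 5 TSSs each. Among the members, klar and Msp300 stood at the top, between 1.96% and 21.1%. LamC, bocks and koi came after them, LamC as low as 60.8% in dsLaminB replicate 1. Lam, LBR and MAN1 were in the lower part of each list in which they had a peak, between 57.9% and 92.8%. Since the lists differ in length, the same percentage is not the same number of peaks from the top.

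**Figure D1:**
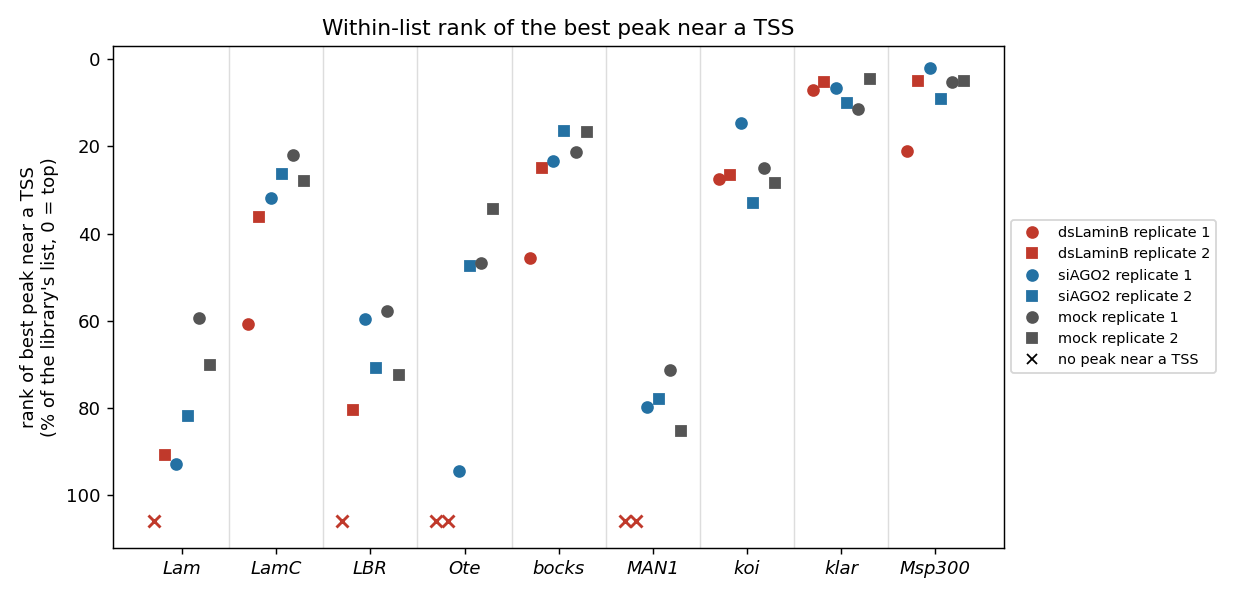
Rank of the best peak within 500 bp of a TSS, as a percentage of the library's own peak list (vertical axis, top of the list upwards), for each member in each of the 6 libraries; colours are treatments, circles replicate 1, squares replicate 2, and crosses libraries with no such peak. The crosses, at Lam, LBR, Ote and MAN1, are all in dsLaminB libraries, and klar lies between 4.68% and 11.4% in all 6.

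The members absent from dsLaminB lists were, apart from Ote, those with low mock ranks. Among the 6551 protein-coding genes with a TSS peak in both mock libraries, the share with none in either dsLaminB library rose down the mock lists. Over ranks of 0 to 25%, 25 to 50%, 50 to 75% and 75 to 100% of the list it was 1.10%, 7.22%, 46.3% and 86.9% by mock replicate 1, and 1.00%, 6.17%, 37.3% and 81.2% by mock replicate 2. MAN1, at 71.3% and 85.3% of the mock lists, was in the third and the last of these ranges, where such loss was frequent. Ote, at 46.7% and 34.4%, was in the second range of both, where it was uncommon. Lam (59.5% and 70.2%) and LBR (57.9% and 72.4%) were in the third range of both, and they had no peak in dsLaminB replicate 1, as did 92.9% and 89.3% of the genes of that range by mock replicates 1 and 2.

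Peak width was compared as the summed width, in bp, of all peaks that overlapped 500 bp on either side of a TSS of the gene, with 0 where there was none. The median of this width over the 9 members was 289 and 364 bp in dsLaminB, 782 and 1173 bp in siAGO2, against 1288 and 1056 bp in mock. At all 9 members this width was lower in both dsLaminB libraries than in both mock libraries, with a missing peak counted as 0. The same held for 95.1% of protein-coding genes with a TSS peak in both mock libraries. That share includes genes with no TSS peak in either dsLaminB library, 28.5% of those tested, so it joins lost with narrower peaks. The mean difference in the median was -845.5 bp (pooled SD 122 bp, n = 2 each, exact permutation p = 0.333), and -535 bp in lists of equal length. In siAGO2, 4 of 9 members (LBR, bocks, MAN1 and Msp300) were narrower in both libraries than in both mock libraries. That compares with 57.4% of protein-coding genes with a TSS peak in both mock libraries. The mean siAGO2 difference in the median was -194.5 bp (pooled SD 227 bp, exact permutation p = 0.667). At the other 5 members the siAGO2 and mock ranges overlapped, and siAGO2 replicate 1 was narrower than replicate 2 at all 9. Over protein-coding genes with a TSS peak, the median width was 316 and 398 bp in dsLaminB, 426 and 624 bp in siAGO2, against 743 and 662 bp in mock, so peaks were narrower in dsLaminB than in mock over the lists too. Over the members with a TSS peak alone, the median was 622 and 399 bp in dsLaminB, 782 and 1173 bp in the siAGO2 libraries, against 1288 and 1056 bp in mock.

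**Figure D2:**
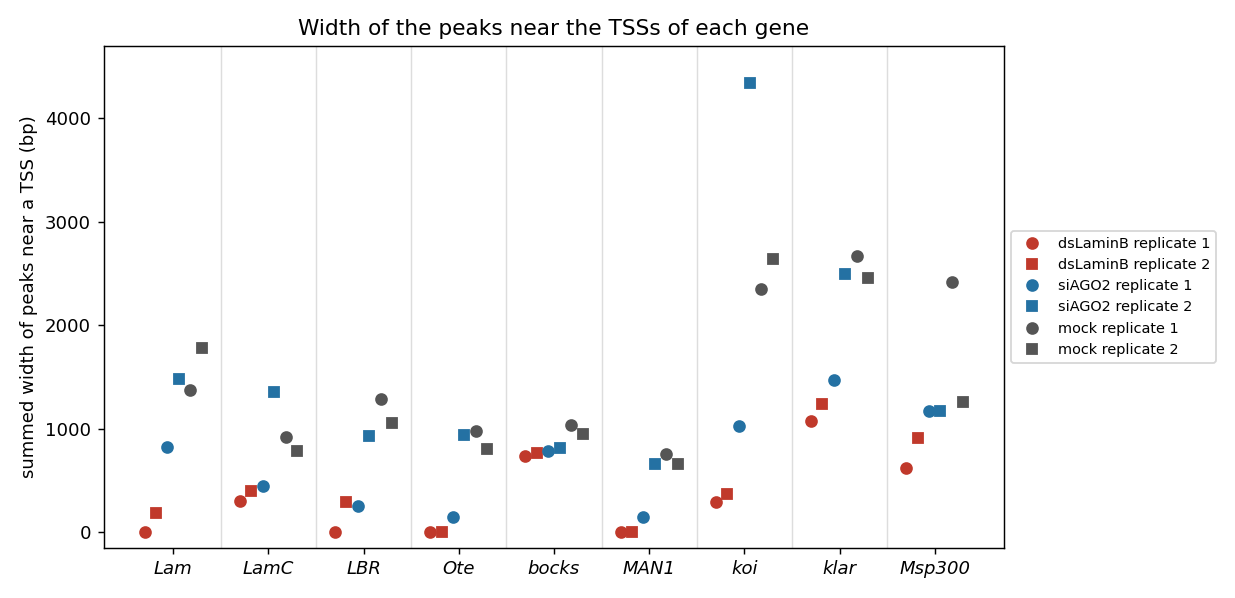
Summed width in bp of the peaks within 500 bp of any TSS (vertical axis) for each member in each of the 6 libraries; colours are treatments, circles replicate 1 and squares replicate 2, and 0 means no peak. The dsLaminB points lie below the mock points at all 9 members, and bocks has the smallest gap, 739 and 762 bp in dsLaminB against 1037 and 947 bp in mock.

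Of the lamins, Lam is the gene against which the dsRNA was directed. RNA interference acts on the mature RNA, so Pol II at Lam is no measure of the depletion, and the lists cannot check it. Lam (FBgn0002525, chr2L:5542480-5546642, plus strand) had no peak in dsLaminB replicate 1 and a peak of 189 bp in dsLaminB replicate 2. Its peaks were 825 and 1485 bp wide in siAGO2, against 1371 and 1782 bp in mock. The dsLaminB mean was thus 94.5 ± 134 bp against 1576 ± 291 bp in mock (SD, n = 2 each), and the siAGO2 and mock values overlapped. The single dsLaminB peak stood at rank 3740 of 4124 with a fold enrichment of 3.10 over input, against fold enrichments of 5.79 and 4.67 in mock.

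The position of the Lam peak also differed between libraries. The 189 bp called in dsLaminB replicate 2, chr2L:5542467-5542655, were common to all 5 peaks, lay 93.1% on exon sequence and covered the first pair of the 4 annotated Lam TSSs. The TSS of the RNA helicase gene Hel25E lies 166 bp upstream on the other strand. Peaks covered 0 and 0 bp of the Hel25E body in dsLaminB, 196 and 781 bp in siAGO2, against 597 and 726 bp in mock, so the wide peaks spanned both genes and cannot be assigned to one of them. The Lam peak stood at rank 3795 of 4089 and 4406 of 5381 in siAGO2, against 3546 of 5965 and 3931 of 5601 in mock, so its place from the top differed less than the length of the lists. With a −log10 q of at least 5, Lam had no peak in either siAGO2 library and kept both mock peaks, and the difference of siAGO2 from mock in width was -1576 bp in place of -421.5 bp.

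The other lamin gene, LamC (FBgn0010397, chr2R:14570810-14575771, minus strand), lies entirely within the gene ttv, which is transcribed from the other strand and makes an enzyme of heparan sulfate synthesis. Its peaks were 297 and 399 bp wide in dsLaminB, 443 and 1351 bp in siAGO2, against 917 and 789 bp in mock. The dsLaminB widths did not overlap those of mock, while the siAGO2 widths lay on both sides of them. The mean difference of siAGO2 from mock, 44 bp with a pooled SD of 459 bp, became -410 bp without siAGO2 replicate 2 and -20 bp without mock replicate 2. Every LamC peak covered its single TSS, and the nearest TSS of ttv is 11890 bp away, under none of these peaks. ChIP reads have no strand of transcription, so Pol II passing along ttv would fall into the same peak. LamC stood at ranks 1539 of 2531 and 1491 of 4124 in dsLaminB, and above Lam in every library where both had a peak. In mock, LamC was at 21.9% and 28.0% of the lists, against 59.5% and 70.2% for Lam. In siAGO2, LamC was at 31.8% and 26.4%, against 92.8% and 81.9% for Lam.

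LBR (FBgn0034657, chr2R:21720495-21724055, plus strand), the lamin B receptor, had no peak in dsLaminB replicate 1 and 295 bp in replicate 2. Its peaks were 253 and 929 bp wide in siAGO2, against 1288 and 1056 bp in mock. LBR was one of the 4 members narrower in both siAGO2 libraries, with a mean difference of -581 bp (pooled SD 357 bp, exact permutation p = 0.333), which became 126.5 bp in lists of equal length, where siAGO2 replicate 1 alone kept the peak. The TSS of Tango11 lies 532 bp upstream on the other strand, and the wider peaks reached its body by 234 bp in siAGO2 replicate 2 and by 249 and 208 bp in mock. No peak reached it in dsLaminB or in siAGO2 replicate 1.

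Among the LEM-domain genes, Ote (FBgn0266420, chr2R:18275607-18277177, minus strand), which is needed to maintain germline stem cells, was the member whose absence from dsLaminB lists stood against a middle mock rank. It had no peak in either dsLaminB library. Its peaks were 151 and 943 bp wide in siAGO2, against 981 and 806 bp in mock. Where called, the peak lay 96.2% to 100% on the Ote body and covered up to 60.1% of it, and no peak touched the body of the head-to-head neighbour pen-2, a gamma-secretase subunit whose TSS is 262 bp away. The values in siAGO2 differed between its libraries, with rank 3861 of 4089 and 2557 of 5381, and the mock ranks were 2786 of 5965 and 1926 of 5601.

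MAN1 (FBgn0034962, chr2R:24033974-24036707, plus strand), which in Drosophila is known to restrain BMP signalling, likewise had no peak in either dsLaminB library. Its peaks were 147 and 656 bp wide in siAGO2, against 760 and 658 bp in mock. The 147 bp peak of siAGO2 replicate 1 lay wholly upstream of MAN1, on the gene Chi, whose TSS is 31 bp away on the other strand and which encodes a LIM-domain cofactor. In the other 3 libraries the peak covered both genes, with 363 bp on MAN1 in siAGO2 replicate 2 and 468 and 372 bp in mock. Ote and MAN1 were the members without a body peak in either dsLaminB library, 2 of 9 against 30.8% of the protein-coding genes with one in both mock libraries. For TSS peaks it was the same 2 genes against 28.5%. In siAGO2 no member was lost in this way, against 7.34% of genes for body peaks and 6.27% for TSS peaks.

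**Figure D3:**
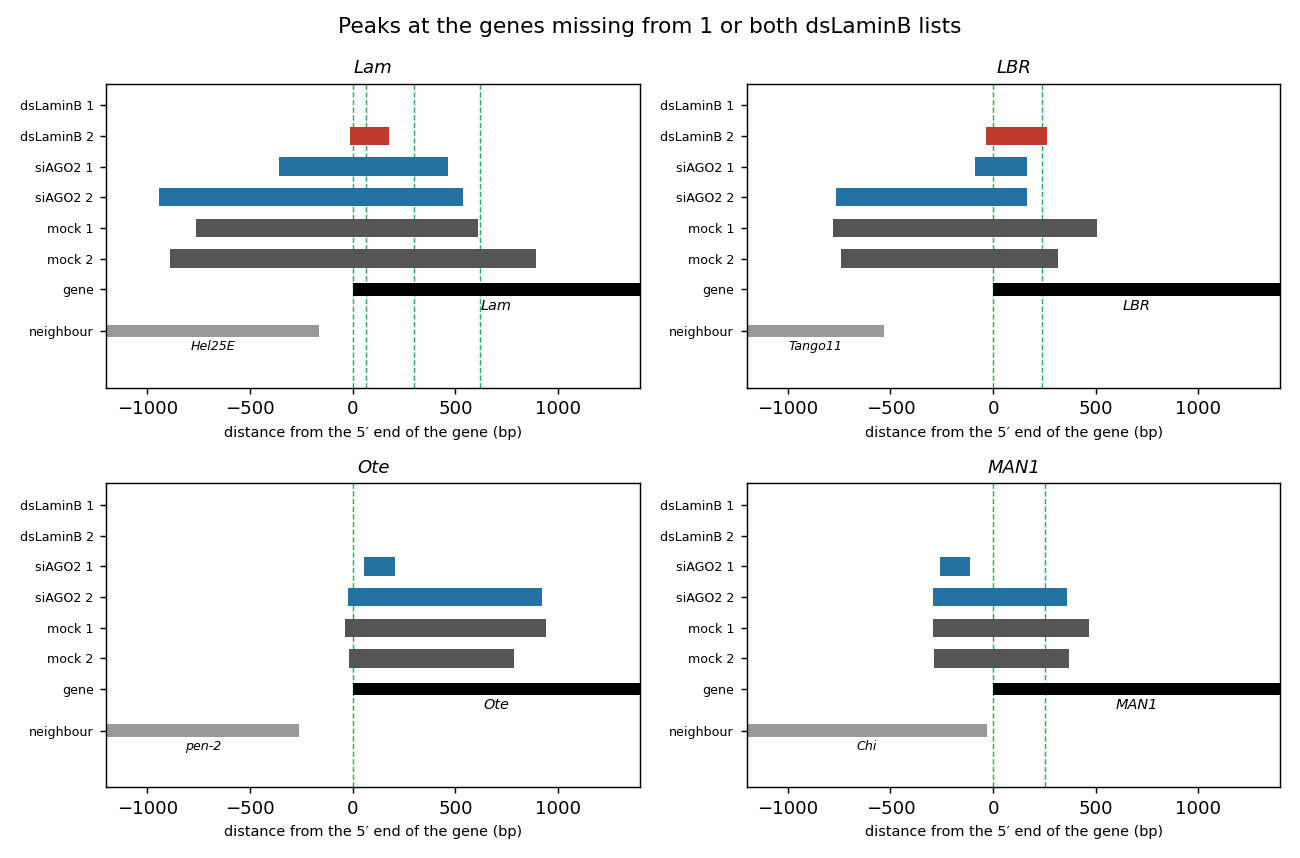
Peaks at Lam, LBR, Ote and MAN1 in each of the 6 libraries, against distance in bp from the 5′ end of the gene, with transcription to the right; dashed lines are annotated TSSs, the black bar is the gene and the grey bar its neighbour. The dsLaminB rows are empty but for 189 bp at Lam and 295 bp at LBR in replicate 2, and the wide mock peaks at Lam, LBR and MAN1 reach over the neighbour.

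The third LEM-domain gene, bocks (FBgn0037719, chr3R:9589468-9591002, minus strand), whose product binds lamin, differed from them. Its peak was 739 and 762 bp wide in dsLaminB, 782 and 817 bp in siAGO2, against 1037 and 947 bp in mock. These groups did not overlap, but the mean difference of dsLaminB from mock, -241.5 bp (pooled SD 46.5 bp), was the smallest of the 9 members. Relative to its own list, the peak was among the widest in dsLaminB, at percentiles 92.1 and 86.9 of width, against 80.6 and 79.8 in mock. The part common to all 6 libraries was 730 bp long and lay 26.99% on exon sequence of bocks, with the rest upstream. The peak centre was between -174 and -127 bp from the bocks TSS, that is upstream, toward CG8312, whose TSS is 307 bp away on the other strand. Each peak covered 227 to 339 bp of the CG8312 body, so this peak spans the divergent pair in every library.

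The genes of the nuclear envelope bridge, koi, klar and Msp300, kept a TSS peak in all 6 libraries. The SUN-domain gene koi (FBgn0265003, chr2R:6811019-6818199, plus strand), whose product anchors the KASH proteins, had a peak at its first start of 289 and 364 bp in dsLaminB, 1025 and 4345 bp in siAGO2, against 2349 and 2406 bp in mock. The mock peaks were at the 98.3 and 99.0 percentiles of width in their lists, and those of dsLaminB at the 46.5 and 53.3 percentiles. Its rank was 694 of 2531 and 1097 of 4124 in dsLaminB, against 1490 of 5965 and 1593 of 5601 in mock. Thus the koi peak was narrower in dsLaminB also relative to the other peaks of its own list.

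The wide koi peaks took in neighbours. The narrow dsLaminB peaks lay 83.0% and 74.2% on koi. In siAGO2 replicate 2 and both mock libraries, peaks covered the whole of ubl, a ubiquitin-like gene that starts 489 bp upstream, and all or part of CG15237. In siAGO2 replicate 1 the peak covered 200 bp of ubl. In siAGO2 replicate 2 the peak also reached SdhB, a succinate dehydrogenase subunit that starts 3393 bp away, and it was the widest peak at any member. With summed peaks the mean difference of siAGO2 from mock at koi, 188.5 bp with a pooled SD of 1667 bp, became -1472 bp without that library. A second koi peak, of 238 bp at the internal TSS, was called in mock replicate 2 only, at rank 5347 of 5601.

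**Figure D4:**
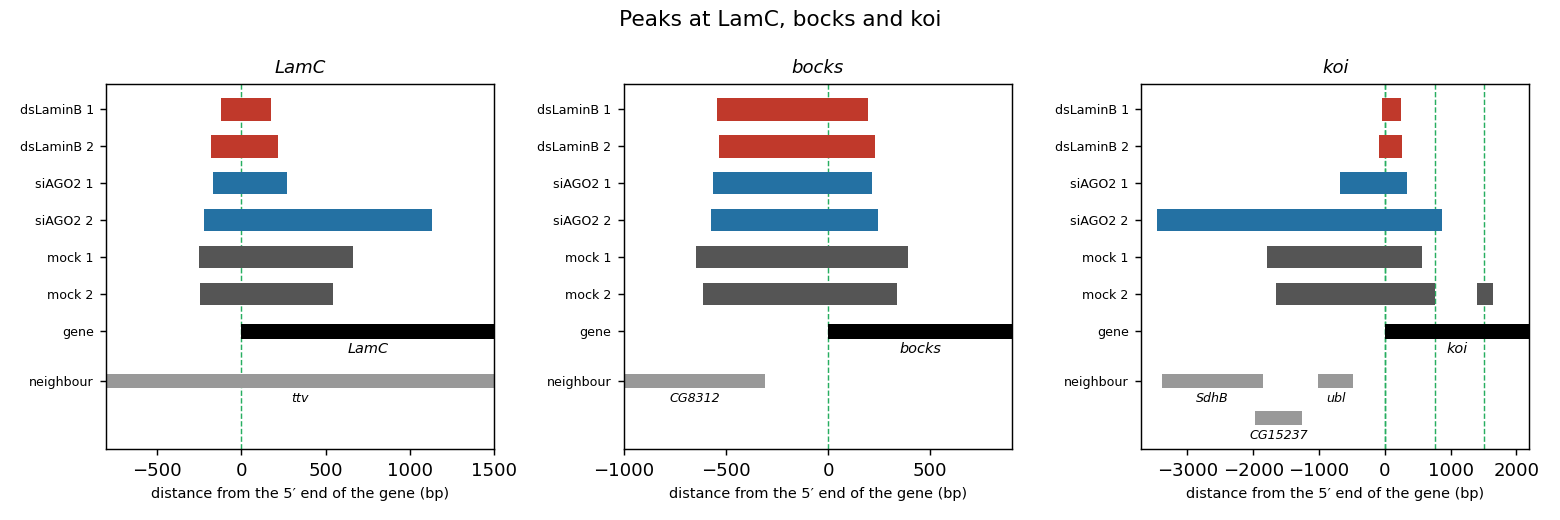
Peaks at LamC, bocks and koi in each of the 6 libraries, against distance in bp from the 5′ end of the gene, with transcription to the right; dashed lines are annotated TSSs, the black bar is the gene and grey bars are neighbours. The bocks peak reaches upstream over CG8312 in all 6 libraries, and is 739 and 762 bp wide in dsLaminB against 1037 and 947 bp in mock. The koi peak is 289 and 364 bp wide in dsLaminB against 2349 and 2406 bp in mock.

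The KASH-domain gene klar (FBgn0001316, chr3L:434083-540614, minus strand), which is known for the migration of nuclei and the transport of lipid droplets, is 106532 bp long with 5 annotated TSSs. A peak was called in all 6 libraries at 4 of them, and the TSS at chr3L:437774 had none in any. The first promoter, used by klar-RA and 3 other transcripts and printed above, had peaks of 268 and 359 bp in dsLaminB, 423 and 1115 bp in siAGO2, against 943 and 997 bp in mock. BORCS6, by its name a subunit of a lysosome-positioning complex, starts 237 bp upstream on the other strand, and peaks reached its body in siAGO2 replicate 2 and in both mock libraries but in no dsLaminB library. The 3 remaining promoters are inside klar, and every peak there lay 100% on it, so they are free of a neighbour.

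The internal promoter printed above, at chr3L:490823, had the best-ranked peak of klar in all 6 libraries. Its width was 357 and 361 bp in dsLaminB, 500 and 764 bp in siAGO2, against 1024 and 742 bp in mock. Its fold enrichment was 12.4 and 11.2 in dsLaminB, 9.64 and 16.3 in siAGO2, and 11.8 and 11.2 in mock. The widths of dsLaminB and mock did not overlap, whereas the fold enrichments did. A fold enrichment is that of the peak as called. These values therefore cover stretches of different width and do not show equal Pol II at the promoter.

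The last pair of klar promoters had narrow peaks in every library. At chr3L:448132 the widths were 229 and 245 bp in dsLaminB, 233 and 310 bp in siAGO2, against 301 and 331 bp in mock, and at chr3L:441096 they were 224 and 278 bp in dsLaminB, 317 and 310 bp in siAGO2, against 402 and 383 bp in mock. Both hold TCAGT at position 1. Their fold enrichments were lower in dsLaminB than in mock without overlap. At the first they were 4.68 and 6.29 in dsLaminB and 6.81 and 8.13 in siAGO2, against 13.4 and 11.4 in mock. At the second they were 4.47 and 9.29 in dsLaminB and 6.48 and 14.5 in siAGO2, against 13.8 and 10.3 in mock. The siAGO2 values were thus also below mock at the first, and lay on both sides of mock at the second. A further klar peak, chr3L:445678-446007, lay on exon sequence with no TSS within 500 bp. It was 210 and 198 bp wide in siAGO2, against 322 and 300 bp in mock, and no peak was called there in dsLaminB.

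Msp300 (FBgn0261836, chr2L:5100877-5207002, plus strand) encodes a giant nesprin that links nuclei to actin and is known from muscle. Its first annotated TSS, used by 4 transcripts, had no peak within 500 bp in any library. The peak at chr2L:5108512, the printed promoter with its run of GAGAG matches, was 426 and 440 bp wide in dsLaminB, 524 and 563 bp in siAGO2, against 759 and 541 bp in mock. It stood at rank 533 of 2531 and 210 of 4124 in dsLaminB, 80 of 4089 and 490 of 5381 in siAGO2, and 321 of 5965 and 277 of 5601 in mock. Its fold enrichment was 9.57 and 16 in dsLaminB, 12.52 and 18.45 in siAGO2, and 16.6 and 11.2 in mock. Here too the dsLaminB and mock fold enrichments overlapped while the widths did not, with the same limit that each fold is that of the peak as called.

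Weaker promoters of Msp300 were called less evenly. The peak at chr2L:5146386 was present in all 6 libraries, 196 and 291 bp wide in dsLaminB, 338 and 347 bp in siAGO2, against 1277 and 396 bp in mock. The peak at chr2L:5151749 was absent from dsLaminB replicate 1 and 178 bp wide in dsLaminB replicate 2, while siAGO2 peaks were 308 and 263 bp wide and mock peaks 385 and 322 bp. A peak of 200 and 196 bp inside the gene, 95063 and 95074 bp from its 5′ end, was called in the mock libraries only, at the edge of an annotated small non-coding RNA gene. The summed width at Msp300 in mock, 2421 and 1259 bp, was uneven because of the wide peak at chr2L:5146386 in replicate 1.

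**Figure D5:**
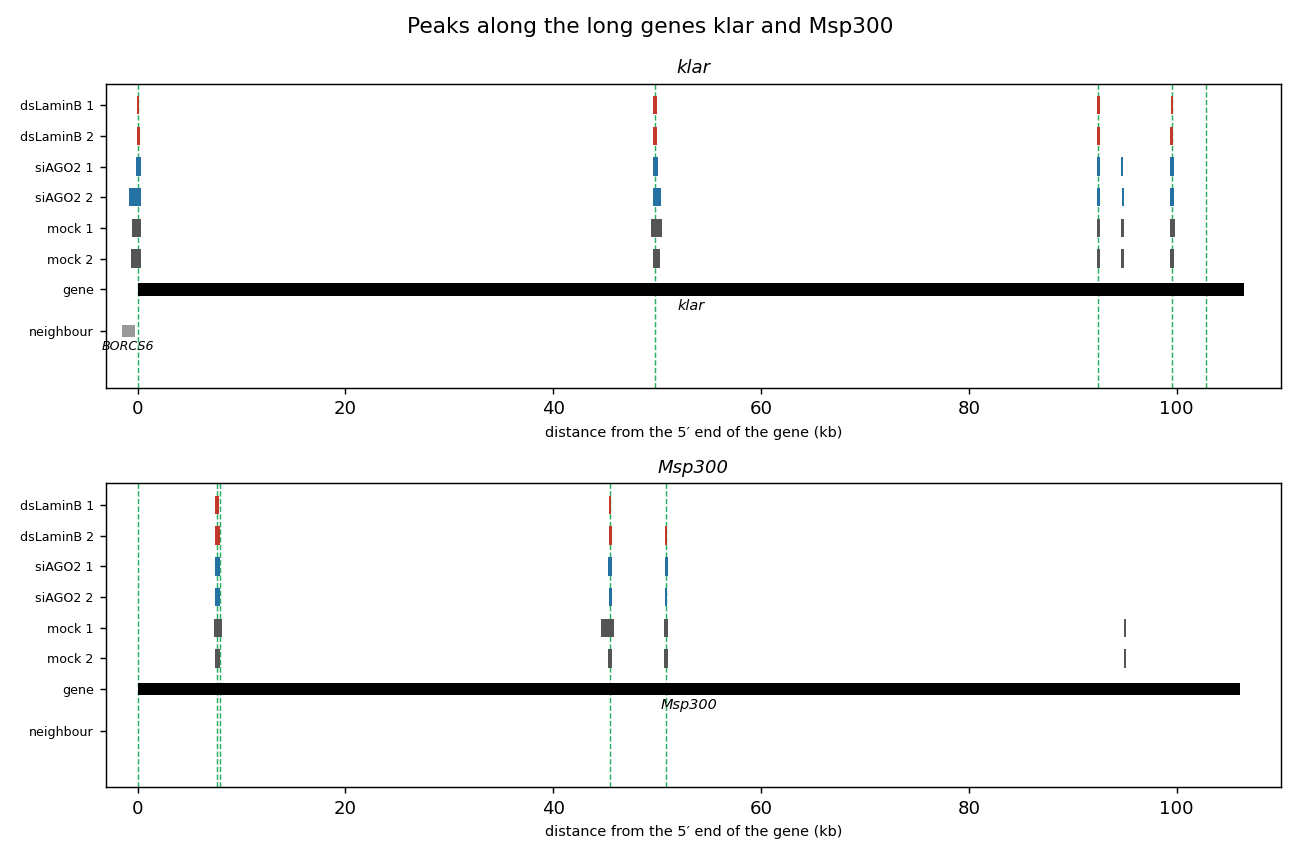
Peaks along klar and Msp300 in each of the 6 libraries, against distance in kb from the 5′ end of the gene, with transcription to the right; dashed lines are annotated TSSs and the black bar is the gene. Of 5 klar TSSs 4 carry a peak in all 6 libraries, and the first Msp300 TSS has none. The klar peak away from its TSSs is missing from the dsLaminB rows. The peak far inside Msp300, away from the TSSs of that gene, is in the mock rows only.

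Most members had a close divergent neighbour. Counting protein-coding genes that start within 1000 bp on the other strand, 8 of 9 members (88.9%) had one, LamC being the exception, with distances of 31 bp at MAN1 to 589 bp at Msp300. The share was 33.3% over all protein-coding genes and 52.9% over those with a TSS peak in both mock libraries. At Msp300 the TSS concerned had no peak, and at Ote no peak touched the neighbour, so the peak at the first start was shared with a neighbour's body at Lam, LBR, bocks, MAN1, koi and klar in at least 1 library, and at LamC with ttv.

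A second list, of 12 other nuclear envelope genes, was set beside the members, and 11 matched by name. Of these 3 had a TSS peak in all 6 libraries: baf, whose product binds DNA and the LEM domain, the kinase gene ball, and Lpin, the lipin phosphatidate phosphatase. Over all protein-coding genes, 19.7% had a TSS peak in all 6. The numbers with a TSS peak were 3 and 8 in dsLaminB, 9 and 9 in siAGO2, and 9 and 9 in mock. In the same order, the shares of all protein-coding genes were 20.2% and 33.6%, 35.4% and 44.8%, and 49.7% and 47.5%. In neither treatment nor mock was a peak called at spag4, a SUN-domain gene, or at fs(1)Ya, a lamina protein of the egg. The lamin-processing protease gene ste24a alone, of the 9 with a TSS peak in both mock libraries, had none in either dsLaminB library. The share over all such protein-coding genes was 28.5%. Widths were lower in both dsLaminB libraries than in both mock libraries at 8 of 9, Nemp being the exception, and in both siAGO2 libraries at 7 of 9. Over protein-coding genes with a TSS peak in both mock libraries, the shares were 95.1% for dsLaminB and 57.4% for siAGO2. At baf the widths were 150 and 347 bp in dsLaminB, 467 and 534 bp in siAGO2, against 1747 and 1709 bp in mock.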

How the data were processed

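Pol II ChIP-seq libraries (6 IP, 2 for each of 3 treatments) were analysed as the peak lists that the authors deposited; the 6 input samples were not analysed here. The submitters' processing notes name cutadapt 1.10, Bowtie2, Picard 2.11.0, MACS2 2.1.1.20160309 and the dm6 build. Each list holds, as the authors deposited it, a score, a fold enrichment over input, and the −log10 p-value and −log10 q-value of each broad peak of 1 library; the score and p-value were not used further. The smallest −log10 q was 1.00. Fold enrichment and q belong to the region as called, so both may depend on its width, which was not tested. Lists hold no reads, so the read-based test of the study could not be run and depth is unknown.

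Peaks were converted to 1-based coordinates, overlapped (by at least 1 bp) with Ensembl gene bodies and with 500 bp on either side of every TSS, and ranked by −log10 q, with Python 3.11.15, numpy 2.4.6 and matplotlib 3.10.9. The largest peak end lay within each chromosome of the RefSeq assembly. Library means were compared by an exact permutation test (two-sided) over the 4 labels, checked on a made-up example with a known answer. The overlap of peaks with genes was checked on planted peaks. All 9 members are named, with each annotated gene whose body, or TSS within 500 bp, a member's peak overlapped. The members, lists, motifs and tests were chosen with earlier results of these data known. Alternatives were a −log10 q of at least 5, lists of equal length, peaks within 1000 bp joined, the peak midpoint, a window of 1500 bp, the gene 5′ end only, each library left out, and a replicate block.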

Additional observations from a re-analysis of the deposited data

How the results depend on the processing

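With 2 libraries a group, leaving each out in turn gave differences of -4 to -2 (dsLaminB) and -1 to 0 (siAGO2) in members with a body peak, and of -390 to 1 bp (siAGO2) in the median width, where 1 bp came without siAGO2 replicate 1. The ranges for siAGO2 were -410 to 498 bp at LamC, -742.5 to 49.5 bp at Ote and -1472 to 1848 bp at koi. In lists of equal length and with the peak midpoint, the body-peak difference was -0.5 for dsLaminB and 0 for siAGO2, and the TSS-peak difference of dsLaminB in lists of equal length was -0.5. The median width difference of dsLaminB was -535 bp in lists of equal length. With a −log10 q of at least 5, siAGO2 differed from mock by -2.5 in both body and TSS peaks, by -479 bp in the median and by -1576 bp at Lam. These changes were not set against all protein-coding genes. Values that changed sign were all of siAGO2 against mock, the median of 1 bp above among them. The others were LamC -410 bp (without siAGO2 replicate 2) and -20 bp (without mock replicate 2), LBR 126.5 bp (lists of equal length), Ote 49.5 bp (without siAGO2 replicate 1), koi -1908 bp (peaks joined), -809.5 bp (midpoint) and -1472 bp (without siAGO2 replicate 2), and klar 438 bp (peaks joined). The joined peaks, and the libraries left out, are named because they make the change; other causes were not tested. A further 11 values moved to 0, or away from a main difference of 0. Among them were dsLaminB differences. In lists of equal length, those at Lam (-1482 bp), LBR (-1024 bp) and MAN1 (-709 bp) became 0, with no peak left in either group. With the gene 5′ end only, that at Msp300 (-1074 bp) became 0, as that start had no peak. Of 260 recomputed values, 240 were labelled as keeping their direction, often with another size. These include the 24 of the replicate block, which leaves the mean difference unchanged by construction. They also include values of 0 where the main difference was 0, which have no direction to keep.

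With a replicate block, the differences were the same. The p of the dsLaminB body-peak difference of -3 was then 0.5, by an exact two-sided sign-flip test over the replicate differences. That is the smallest p that 2 blocks allow, so this test can call no difference either. The labels do not say what a replicate number shares, and deviations of same-numbered libraries correlated at 0.09 between dsLaminB and mock, 0.12 between siAGO2 and mock and -0.04 between dsLaminB and siAGO2 over 7099 genes, so the numbers were not taken to pair the libraries.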
